A study of Homo sapiens with 2 samples.

Results

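Expression of 10 desmosomal genes was followed through 2 arrays of Panc1, a line of human pancreatic ductal cancer cells. The genes are DSP, JUP, PKP1, PKP2, PKP3, PKP4, DSG2, DSC2, DSC3 and PERP, and every probe set whose platform annotation gave exactly 1 gene symbol, that of a member, was taken. This gave 27 probe sets of 54675 and 10 genes of the 19775 that had such a probe set. The control population, labelled Panc1/mock, carries the empty vector, and the other, labelled Panc1/syk-wt, stably carries introduced wild-type SYK, which encodes a cytoplasmic tyrosine kinase. Both were grown alike in standard culture under hygromycin, and the series title calls the mock cells drug-resistant. Each population had 1 array. The sources used here do not say whether a population is a pool or a single clone. Population, RNA preparation and array cannot be told apart. No p-value or error between cultures can therefore be given for any gene.

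Desmosomes are button-like junctions that tie the keratin filaments of neighbouring epithelial cells together. Desmogleins (DSG) and desmocollins (DSC), both members of the cadherin superfamily, span the gap between the cells. Inside each cell their tails bind the armadillo proteins plakoglobin (JUP) and plakophilins (PKP), and these bind desmoplakin (DSP), which holds the keratin filaments. In simple glandular epithelia such as the pancreatic duct, DSG2 and DSC2 are the usual cadherin pair, whereas DSG1, DSG3, DSC1 and DSC3 are best known from stratified epithelia.

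Signals are deposited log2 intensities after RMA (robust multi-array average), and differences below are syk minus mock, so that 1 unit is 2-fold. A gene took the value of its brightest probe set. It was counted among all genes when the mean of both arrays reached 4.25, the 50th percentile over all probe sets, as 12814 genes did. The highest probe set against bacterial transcripts, 4.77, marks dim signal, and a fold with 1 value at or below it is given as "at least", measured against 4.77. The probe sets of SYK were dim on both arrays (2.98 to 4.73) and differed by -0.27 to 0.46, so that the labels had no clear check from the introduced gene and every direction rests on them. The 3' minus 5' signal of the ACTB controls, which follows RNA quality, was 1.95 for mock and 2.37 for syk. Its part in the differences below was not tested. In RNA from whole cultures, fewer cells expressing a gene and less RNA per cell cannot be told apart.

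The plaque protein DSP and the cadherins DSG2, DSC2 and DSC3 were at least 2-fold higher on the syk array, whereas JUP, PKP3, PKP4 and PERP stayed under 2-fold. PKP1 and PKP2 were dim on both arrays, where a difference could hardly show. Of the 10 genes, 9 passed the brightness filter and PKP2 did not. Of these 9, 4 were at least 2-fold higher, 0 were at least 2-fold lower and 5 were under 2-fold, the dim PKP1 among them. Among all 12814 genes, 7.26% differed by 2-fold or more and 3.61% were higher by that much. The median difference of the 9 genes was 0.65, which is the value of PKP3, and that of all genes was 0.01. The genes were chosen with results of these arrays known, so these figures describe the set and test nothing.

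All 10 probe sets of DSP, DSG2, DSC2 and DSC3 read higher on the syk array, 8 of them by 2-fold or more as measured and 6 when values below 4.77 were raised to it. The 2 that separate these counts, 1 of DSC2 and 1 of DSC3, were dim on mock and reached the filter level of 4.25 only through the syk array. The smallest measured difference was 0.44. Of all probe sets with 1 symbol past the filter, 3.33% were higher by 2-fold or more as measured, and nothing is read from that share here. The 17 probe sets of the other 6 genes lay between -0.43 and 0.65, with 5 above 0, 11 below 0 and 1 at 0. Probe sets of 1 gene read the same RNA and are no replicates of the population.

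**Figure D1:**
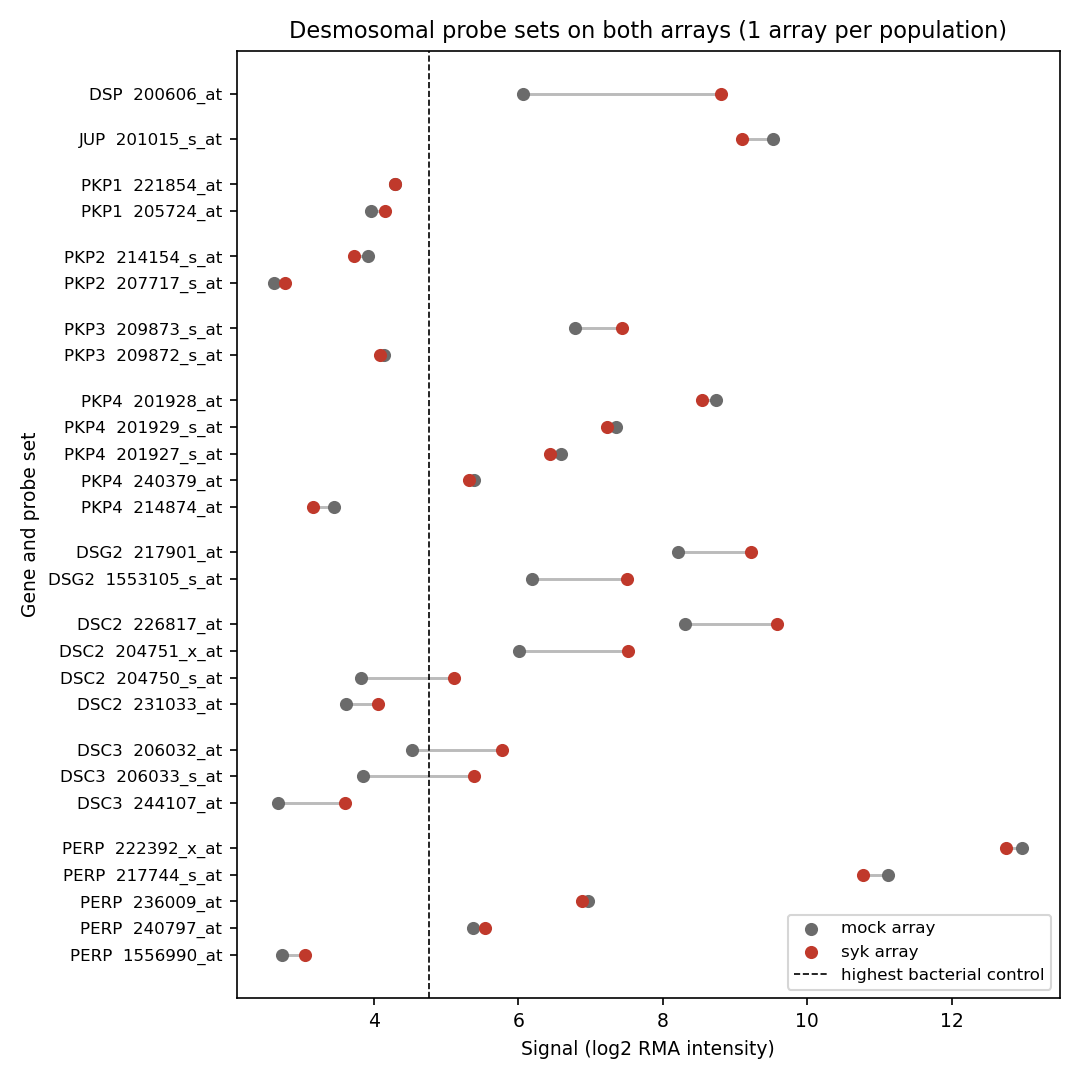
Signal of each desmosomal probe set (rows) on the mock array (grey) and the syk array (red), in log2 RMA intensity. The dashed line is the highest bacterial control (4.77), and the largest gap is that of DSP, from 6.07 to 8.80.

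DSP encodes desmoplakin, the plakin that anchors keratin filaments to the desmosomal plaque. Its only probe set read 6.07 for mock and 8.80 for syk. Both values lie above 4.77, so this 6.64-fold difference was measured between 2 signals over the bacterial controls. Among all probe sets, this one stood at the 70.5th percentile on the mock array and at the 90.9th on the syk array. By the size of its difference DSP ranked 34th from the top of the 12814 genes, and 0.265% of genes differed by as much or more in that direction. With 1 probe set there is no second reading of DSP on these arrays.

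DSG2 encodes desmoglein 2, the desmoglein of simple epithelia and of heart muscle. Its brighter probe set read 8.20 on mock and 9.23 on syk, a 2.03-fold difference (1.02 in log2). The other read 6.19 and 7.50, a 2.48-fold difference. Both probe sets were thus well over the bacterial controls on both arrays, with the syk array higher in each. The brighter one lay barely past 2-fold, and removing a loess trend on brightness brought it to 0.99. Of all genes, 3.43% differed as much or more in the same direction.

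DSC2 encodes desmocollin 2, the partner cadherin of DSG2 in simple epithelia. Its brightest probe set read 8.31 on mock and 9.58 on syk, a 2.41-fold difference. The second read 6.01 and 7.52, or 2.83-fold. Its name ends in _x_at, which marks probes that may also bind other transcripts. The third read 3.82 on mock, within the range of bacterial controls, and 5.11 on syk, at least 1.27-fold. The fourth was dim on both arrays (3.62 and 4.06). All 4 probe sets were higher on the syk array, and the 2 that were clear of the bacterial controls on both arrays lay at 1.27 and 1.50. Of all genes, 1.94% were higher by as much as DSC2 or more.

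DSC3 encodes desmocollin 3, known best from the basal layers of stratified epithelia. It was dim on the mock array in all 3 probe sets (4.53, 3.85 and 2.68). On the syk array the same probe sets read 5.77, 5.39 and 3.59. The first was thus at least 2.01-fold higher (2.36-fold as measured) and the second at least 1.54-fold (2.89-fold as measured), while the third stayed below 4.77 on both arrays. DSC3 signal thus lay within the range of the bacterial controls on mock and, in 2 probe sets, modestly above it on syk. Whether its probes also bind DSC2 transcripts was not tested.

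**Figure D2:**
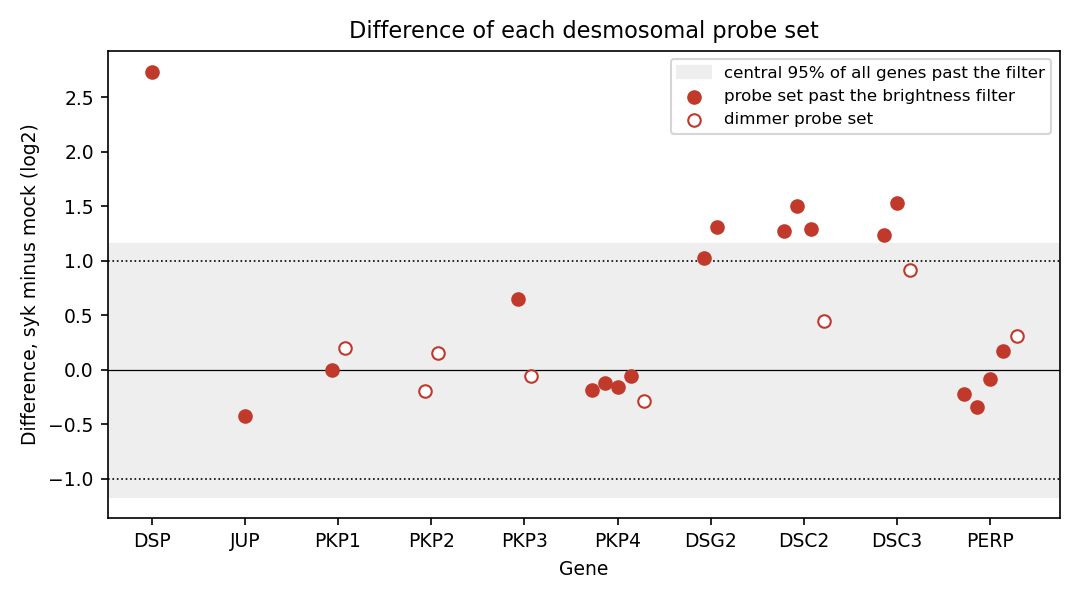
Difference, syk minus mock (log2), of each probe set by gene. Filled points passed the brightness filter, dotted lines mark 2-fold, and the grey band holds the central 95% of all genes past the filter (-1.16 to 1.16). DSP stands alone at 2.73, and all points of DSG2, DSC2 and DSC3 lie above 0, the lowest being a dim DSC2 probe set at 0.44.

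Below the membrane, none of the armadillo genes reached 2-fold in any of their 12 probe sets, which spanned -0.43 to 0.65. All probe sets of PKP1 and PKP2, 1 of PKP3 and 1 of PKP4 were dim on both arrays, where a difference could hardly show. The contrast with the cadherins therefore rests on JUP, PKP3 and PKP4. Plakoglobin, JUP, which links the cadherin tails to desmoplakin and is shared with adherens junctions, read 9.53 on mock and 9.10 on syk in its single probe set. That is 1.35-fold lower, opposite in sign to its binding partners DSG2, DSC2 and DSP. Of all genes, 16.4% lay as low or lower.

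Plakophilins cluster the cadherins and recruit desmoplakin. PKP3, the most widely expressed of them in epithelia, read 6.79 on mock and 7.44 on syk, a difference of 0.65 (1.57-fold). Its second probe set was dim on both arrays (4.15 and 4.09). PKP3 had the largest difference among the plakophilins by its brightest probe set, and 10.1% of all genes were as high or higher. With the mean over its probe sets the difference was 0.30.

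PKP4, also called p0071, is a plakophilin relative found at adherens junctions as well as desmosomes. Its brightest probe set read 8.73 on mock and 8.55 on syk. The next read 7.35 and 7.23, the third 6.60 and 6.44, the fourth 5.38 and 5.32, and the fifth was dim (3.44 and 3.16). All 5 lay slightly below 0, between -0.28 and -0.06. PKP4 therefore had the narrowest spread of the genes with several probe sets (an SD of 0.08 over its 5 probe sets, beside a pooled 0.35 over the 6028 genes that had more than 1 past the filter).

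PKP1, the plakophilin of the upper layers of stratified epithelia, and PKP2, that of simple epithelia and heart, were dim on both arrays. PKP1 read 4.29 on both arrays in its brighter probe set, identical to the last deposited decimal, as were 2189 of all probe sets. Its other probe set read 3.96 and 4.16. PKP2 read 3.92 on mock and 3.73 on syk in one probe set, and 2.62 and 2.77 in the other. No fold is given for either gene, since all 4 probe sets lay at or below 4.77.

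PERP is a tetraspan membrane protein that takes part in desmosome assembly. Its brightest probe set read 12.98 on mock and 12.75 on syk, near the top of both arrays (99.7th and 99.6th percentile of all probe sets). The second read 11.12 and 10.78, a difference of -0.34, and the third 6.96 and 6.87. The fourth read 5.38 and 5.54, and the last was dim (2.73 and 3.04). The brightest 3 were slightly lower and the other 2 slightly higher on the syk array, all within 1.27-fold.

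**Figure D3:**
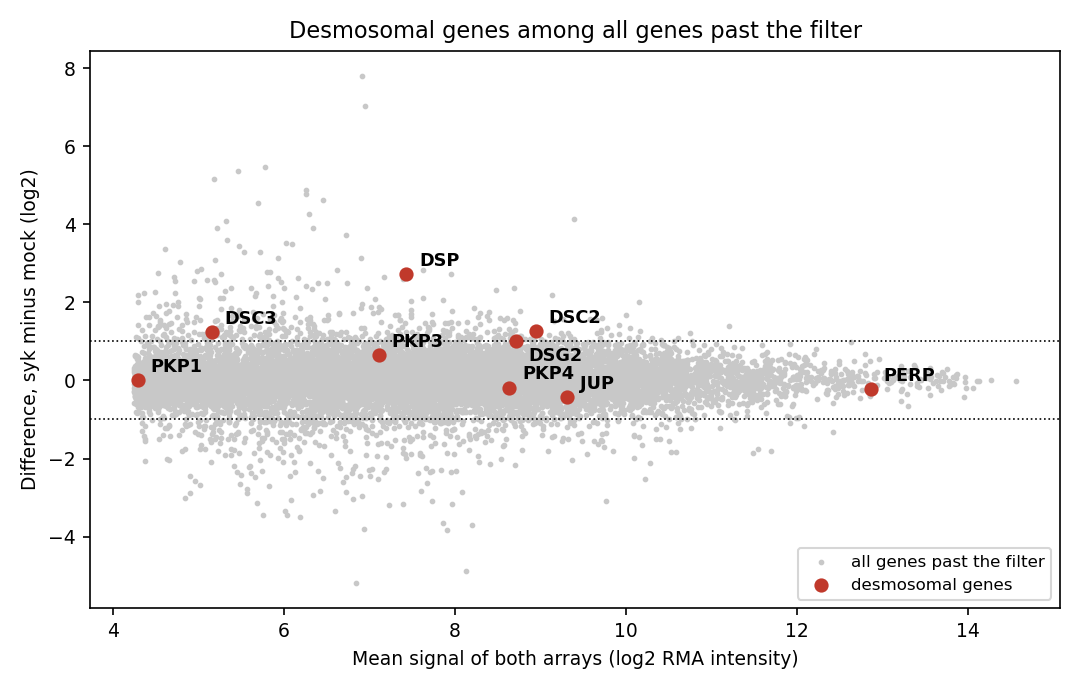
Mean signal of both arrays (x, log2 RMA intensity) against the difference syk minus mock (y, log2) for the 12814 genes past the filter (grey) and the 9 desmosomal genes among them (red, named). Dotted lines mark 2-fold. DSP, DSC2, DSG2 and DSC3 lie above the upper line, and the other 5 lie between the lines.

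The 4 desmosomal cadherins outside the set, which are DSG1, DSG3, DSG4 and DSC1, were dim throughout, from 2.54 to 3.49 on mock and from 2.62 to 3.49 on syk. In human, all desmogleins and desmocollins lie side by side on chromosome 18 in the order DSC3, DSC2, DSC1, DSG1, DSG4, DSG3, DSG2 (gene order from RefSeq, GRCh38.p14). The genes higher on the syk array thus sit at both ends of the cluster, with 4 dim genes between them. The dim genes differed by 0.20, 0.25, 0.06 and 0.00 in that order.

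The genes around the cluster were listed after these values had been seen, 12 protein-coding genes on each side. Of the 24, 14 passed the brightness filter, 3 of them higher and 1 lower by 2-fold or more, with a median of 0.24. Above 0 lay 11 of these 14. Over all genes past the filter, 3.61% were higher by 2-fold or more and 52.2% lay at or above 0. Whether the region as a whole differs was not tested. The nearest genes past the filter on each side lay above 0 but under 2-fold. CDH2, which encodes N-cadherin and lies next to DSC3, differed by 0.37 (8.65 on mock and 9.03 on syk). Beyond DSG2, TTR differed by 0.22 and B4GALT6 by 0.24. TTR was dim on mock (4.62) and barely above 4.77 on syk (4.84), so little can be read from its difference. Farther out, TAF4B (1.32), IMPACT (1.25) and GAREM1 (1.75) were higher and KLHL14 (-1.46) was lower. Over chromosome 18 as a whole, 14 of 163 genes past the filter were higher by 2-fold or more and 10 lower. Of the 163, 90 lay above 0, and the median was 0.08. Gene copy number was not analysed here.

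**Figure D4:**
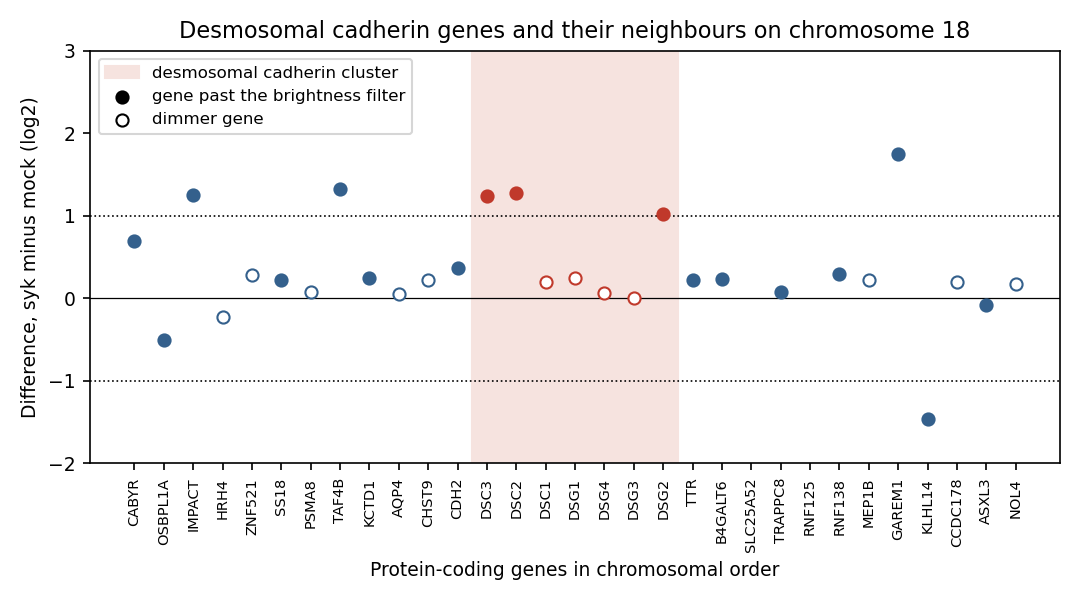
Difference, syk minus mock (log2), of the 7 genes of the desmosomal cadherin cluster (red, shaded) and of the protein-coding genes on either side (blue), in chromosomal order. Open points are genes below the brightness filter, and 2 genes without a value have no point. DSC3, DSC2 and DSG2 lie above the 2-fold line, while the 3 nearest measured neighbours on each side lie between 0.05 and 0.37.

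The start regions of the 4 genes that were higher are shown because these members differed in the same direction. Each is the 250 bases before the RefSeq gene start, 5' to 3' on the gene's own strand (GRCh38.p14). They lie at chr6:7541421-7541670 (plus strand), chr18:31497927-31498176 (plus), chr18:31102422-31102671 (minus) and chr18:31042743-31042992 (minus). Capitals mark CAGGTG or its reverse complement CACCTG, the E-box to which the ZEB and SNAI repressors of epithelial genes are known to bind.
DSP: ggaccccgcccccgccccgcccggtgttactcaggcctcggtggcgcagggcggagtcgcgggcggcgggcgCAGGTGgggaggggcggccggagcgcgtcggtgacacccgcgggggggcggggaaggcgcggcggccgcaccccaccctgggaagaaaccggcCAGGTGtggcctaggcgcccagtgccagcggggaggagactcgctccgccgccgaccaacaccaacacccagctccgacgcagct
DSG2: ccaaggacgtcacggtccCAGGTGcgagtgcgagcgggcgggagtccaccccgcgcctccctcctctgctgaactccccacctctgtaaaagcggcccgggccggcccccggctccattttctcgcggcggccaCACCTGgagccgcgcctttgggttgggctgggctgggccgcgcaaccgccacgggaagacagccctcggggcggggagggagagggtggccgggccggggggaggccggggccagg
DSC2: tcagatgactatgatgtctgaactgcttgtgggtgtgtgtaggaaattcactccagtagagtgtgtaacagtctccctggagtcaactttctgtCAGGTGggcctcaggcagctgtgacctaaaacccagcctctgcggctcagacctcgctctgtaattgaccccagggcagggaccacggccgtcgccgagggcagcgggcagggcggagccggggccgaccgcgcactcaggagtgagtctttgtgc
DSC3: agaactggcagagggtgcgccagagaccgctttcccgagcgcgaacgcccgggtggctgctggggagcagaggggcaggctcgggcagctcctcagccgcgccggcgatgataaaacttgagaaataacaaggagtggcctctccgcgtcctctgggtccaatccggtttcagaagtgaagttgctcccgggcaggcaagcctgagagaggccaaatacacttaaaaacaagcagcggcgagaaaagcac

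CAGGTG was found at 178 and 85 bases before the start of DSP, counted to the first base of the match. In DSG2 it began 232 and 116 bases before the start, and in DSC2 156 bases before it. DSC3 had no match in its window. Both strands were searched, and 17.5% of 35116 windows of the same length held a match. Of the desmosomal genes under 2-fold, 4 had a window at the gene start (JUP, PKP1, PKP4 and PERP), and 0 of these 4 held one. PKP1 was dim on both arrays, where a difference could hardly show. The genes were split here by the differences themselves, so nothing is read from this contrast. Second start sites were listed for DSC2, JUP and PKP4, and of these only the JUP window held the motif. PKP2 and PKP3 had no window in the table used. The GC box GGGCGG (reverse complement CCGCCC, with 0 matches that overlap the E-box in the windows of the desmosomal genes) was present in 42.6% of all windows, with 7 matches in DSP, 2 in DSG2, 1 in DSC2 and 0 in DSC3. At the gene starts of members under 2-fold it had 5 matches in PERP, 3 in PKP4, 2 in JUP and 1 in PKP1. The exact sequence AACCGGTT, 1 form of the site of Grainyhead-like factors, was in 0.117% of all windows and in none of those of the desmosomal genes. For so rare a sequence its absence from these windows says little, and other forms were not searched. The motifs were picked with the differences known, and a match describes letters, not binding.

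Among 13 measured transcription factors of epithelial junction genes, 7 passed the filter, and 1 of them was at least 2-fold lower, against 0 higher. Beside the counts of this list and those below, 7.26% of all genes past the filter differed by 2-fold or more. The repressor ZEB1 read 9.08 on mock and 8.18 on syk, 1.87-fold lower, and its 4 probe sets lay between -0.90 and -0.06. The repressor SNAI1 differed by only -0.09 (5.74 on mock and 5.66 on syk). ZEB2, SNAI2 and TWIST1 lay below 4.77 on both arrays in their brightest probe sets. GRHL3, a Grainyhead-like activator of epidermal genes, was 2.09-fold lower (6.99 and 5.92), and the epithelial ETS factor ELF3 was 1.93-fold lower (6.34 and 5.39). The list's median was -0.09. Whether any of these bears on the desmosomal genes was not tested.

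Of 7 plakins and cornified envelope genes past the filter, 1 was at least 2-fold lower and 0 higher, with a median of -0.45. That gene was epiplakin, EPPK1, which read 5.29 on mock and 3.88 on syk, 2.66-fold lower as measured but only at least 1.43-fold against 4.77. Its 5 probe sets ran from -1.41 to 0.33. Envoplakin, EVPL, was 1.44-fold lower (6.03 and 5.50), and plectin, PLEC, which links filaments to other parts of the cytoskeleton, 1.43-fold lower (7.91 and 7.40). The plakin DST differed by -0.40 in its brightest probe set, but its 10 probe sets spanned -0.70 to 2.26.

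Keratins form the filaments that desmoplakin holds. Of 9 keratins and other intermediate filament genes past the filter, VIM and DES among them, 2 were at least 2-fold lower and 0 higher. Of the 9, 6 lay below 0 and 3 above it, and the median was -0.49. KRT15 was 4.59-fold lower (7.93 on mock and 5.74 on syk) and KRT19 2.72-fold lower (10.88 and 9.44) by its brighter probe set, while its other probe set differed by -0.37. KRT80 differed by 0.29. KRT8, one of the main keratins of simple epithelia, was 1.69-fold lower (11.06 and 10.30). Of the 3 above 0, KRT5 was dim on both arrays (4.40 and 4.50) and DES lay close to 4.77 (4.75 and 4.77). The desmosomal genes and this list had medians of opposite sign, 0.65 and -0.49, and the difference between these lists was not tested. These medians are the values of PKP3 and KRT7, and each of these genes had probe sets of both signs.

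Of 6 armadillo and adherens junction partners past the filter, 1 was at least 2-fold lower and 0 higher, with a median of -0.45. E-cadherin, CDH1, the classical cadherin of epithelia, read 6.34 on mock and 3.47 on syk, at least 2.98-fold lower, while its other probe set differed by -0.46. P-cadherin, CDH3, read 5.17 and 4.30, and alpha-catenin, CTNNA1, 11.34 and 10.88, with 5 probe sets from -1.36 to 0.22. N-cadherin, CDH2, given above, was the 1 gene of this list above 0 (0.37), and its other probe set differed by 0.10. The classical cadherins thus had both signs, CDH1 and CDH3 below 0 and CDH2 above it. Unlike DSG2 and DSC2, CDH2 stayed under 2-fold.

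Hemidesmosomes fasten keratin filaments to the matrix by an integrin. All 5 hemidesmosome genes measured passed the filter and lay below 0 by their brightest probe sets, with a median of -0.40. DST and PLEC are among these 5 and were already counted with the plakins. The median is the value of DST, of whose 10 probe sets 4 lay above 0. ITGB4, the integrin beta subunit of the structure, was 3.73-fold lower (7.50 on mock and 5.60 on syk). Its 5 probe sets ran from -1.90 to -0.06.

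All 15 genes listed for desmosome assembly and turnover passed the filter. None of them, 0 of 15, reached 2-fold, and their median was -0.24. Over all genes past the filter 7.26% did, so in so short a list this count says little. The protein kinase PRKCD differed by -0.72, adducin ADD1 by -0.62 and the kinesin KIF5B, which carries desmosomal cargo, by -0.57. Among relatives of PERP, EMP2, a tetraspan protein of the same superfamily, was 3.19-fold higher (6.50 and 8.18) and EMP1 was at least 4.14-fold lower (6.81 and 4.16). All 4 EMP2 probe sets were above 0, whereas the 6 of EMP1 ran from -2.66 to 0.43. EMP3 was 1.77-fold lower (10.78 and 9.96).

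**Figure D5:**
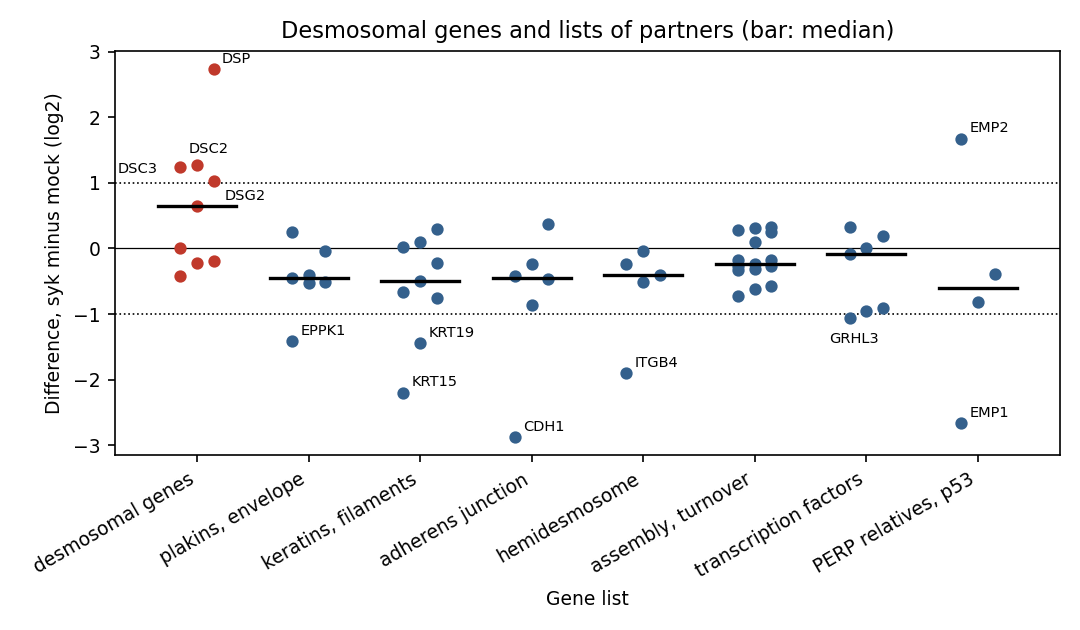
Difference, syk minus mock (log2), of the desmosomal genes past the filter (red) and of genes past the filter in each list of partners (blue). Black bars are medians, dotted lines mark 2-fold, and genes past 2-fold are named. The median is 0.65 for the desmosomal genes and lies between -0.61 and -0.09 in the other lists. EPPK1, CDH1 and EMP1 reached the filter only through the mock array. DST and PLEC are shown under both plakins and hemidesmosome.

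Markers of ductal epithelium were all measured above the filter, as the label of the line implies, but several were lower on the syk array. Of 9, 4 (CDH1, CLDN4, KRT19 and MUC1) were at least 2-fold lower and 0 higher. EPCAM (0.30) and SOX9 (0.34) were the 2 above 0. The summed log2 signal of the 9 was 81.2 on mock and 72.6 on syk. Its largest parts came from CDH1 (-2.87 as measured), CLDN4 (-2.37) and KRT19 (-1.45), so the sum describes no even shift. Over all genes past the filter, 7.26% differed by 2-fold or more in either direction. CDH1 and KRT19, among the lower markers, were already counted in the lists above, as were KRT7, KRT8 and KRT18. CDH1 lay in the range of the bacterial controls on the syk array. CLDN4, a claudin of tight junctions, read 7.98 and 5.61 in its brighter probe set, while its other probe set differed by 0.25. Their part in the desmosomal differences was not tested. Of 8 markers of stratified keratinocytes, in which DSC3 is best known, 7 lay at or below 4.77 on both arrays, KRT5, KRT14, DSG1 and DSG3 among them. The exception was KRT10 (9.85 on mock and 10.08 on syk). The summed signal of these 8 was 35.3 on mock and 35.4 on syk. Heart muscle, the other tissue rich in DSP, DSG2 and PKP2, had 4 of its 6 measured markers at or below 4.77 on both arrays, with summed signals of 26.7 and 26.8. The exceptions were TNNI3 (5.91 on mock and 5.79 on syk) and NPPA (5.74 and 5.81). Markers of leukocytes (4 of 5), endothelium (4 of 4), acinar cells (3 of 3) and endocrine cells (4 of 4) were likewise at or below 4.77 on both arrays. The leukocyte exception was CD79A (5.06 on mock and 5.24 on syk).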

How the data were processed

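Values were taken as log2 intensities from the deposited table of 54675 probe sets; per the submitters' processing notes the authors used RMA, whose version and settings are not given in the sources used here. RMA aligns arrays by quantiles and compresses differences between dim probe sets. Both columns were used.

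Probe sets were named by the platform annotation, with symbols checked against RefSeq gene IDs: 41097 had 1 symbol, 1801 had several and stayed unnamed, and 11777 were not named here. A gene took its brightest probe set, passed the filter at a mean of 4.25 or more, and was counted at an absolute log2 difference of 1. With 1 array per population no test was run, and the number of arrays limits the precision. The pooled SD of the difference between probe sets of 1 gene (0.35) covers probe behaviour only. The calculation was tested on simulated data.

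Members, lists, filter, threshold and the floor of 4.77 (highest of 27 bacterial control probe sets) were chosen with earlier results of these data known. All members are named, with SYK and, from each other list, up to 3 genes with the largest absolute difference. The chromosome 18 neighbours, TTR and B4GALT6 included, and keratinocyte markers other than the largest were named after their values were seen. So were DST, KRT7, KRT80, VIM, DES, MUC1, EPCAM, SOX9, SNAI1, SNAI2, ZEB2 and TWIST1. Some listed genes were not analysed here. Alternatives were median centring, loess (span 0.2), mean or median over probe sets, probe sets ending in _at alone, 3 other filters and the floor. Python 3.11.15, pandas 2.3.3 and statsmodels 0.14.6 were used.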

Additional observations from a re-analysis of the deposited data

How the results depend on the processing

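Under 9 alternatives the count of desmosomal genes past 2-fold was 3 or 4. It was 3 after removal of the loess trend, where DSG2 came to 0.99, and again 3 under the 75th percentile filter, which DSC3 does not reach. DSP lay between 2.71 and 2.75, DSC2 between 1.13 and 1.29 and DSC3 between 1.01 and 1.27 wherever they gave a value. The median of the desmosomal genes ran from 0.32 (no filter) to 1.02 (probe sets ending in _at alone, which leave out JUP and PKP3). Over all genes the count was 930 of 12814 (7.26%). It came to 562 of 11652 (4.82%) when probe sets were averaged and to 573 of 11218 (5.11%) when their median was used. Under that stricter filter it was 486 of 8031 (6.05%). Each of these settings left fewer genes past the filter, the stricter filter by construction. The cause of the lower shares was not tested. PKP2 gave a value only without a filter. No paired analysis was possible because each population had 1 array. Signal over background limits DSC3, PKP1 and PKP2.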
